A study of Mus musculus with 5 samples.

Results

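The caveolin family (*Cav1*, *Cav2*, *Cav3*), the cavins *Cavin1*, *Cavin2* and *Cavin3* and the caveola-neck genes *Ehd2* and *Pacsin2* were followed in sorted olfactory sensory neurons (OSNs) after exposure to an odorant. These 8 genes were chosen by name among the 55411 genes of the count tables, and the set was built around *Cav2*, which had been seen to be much higher in both exposed pools. The difference of *Cav2* between conditions is therefore given as a description, with no test, and the question asked of the other 7 genes was whether they followed it. The cells were OSNs that transcribe the odorant receptor gene *Olfr151* (also called M71), sorted by GFP from *Olfr151-IRES-tau-GFP* mice, in which the reporter is translated from the receptor transcript. Mice of both conditions were 7-week-old males homozygous for the knock-in allele (*Olfr151* GFP/GFP), backcrossed to C57BL/6J. The exposed mice had received acetophenone, an agonist of this receptor, at 5% in DMSO for 5 h, and the control mice DMSO alone for the same time. Control pools 1, 2 and 3 (C1, C2 and C3) and exposed pools 1 and 3 (E1 and E3) were analysed, each combining cells from 4 mice, and the second exposed pool was not analysed here.

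Caveolae are small flask-shaped pits of the plasma membrane, rich in cholesterol. Caveolin-1 (or caveolin-3 in muscle) builds the coat, caveolin-2 joins it as a hetero-oligomer and in most cells relies on caveolin-1 to reach the cell surface, and the cavins form an outer layer around the bulb. The ATPase EHD2 and the F-BAR protein PACSIN2 sit at the neck and stabilise or shape it. Caveolae are abundant in endothelial cells, adipocytes, fibroblasts and muscle, whereas most neurons hold few or none.

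*Cav2* was the most abundant caveolin in both exposed pools, and of its partners all but *Pacsin2* were low or absent. In the exposed pools E1 and E3 it had 1910 and 1286 counts, against 44, 86 and 47 counts in C1, C2 and C3. Of the 7 partners, 2 had no read in any pool, 4 had few reads, in an order over the pools that did not follow exposure, and *Pacsin2* alone was well detected everywhere. Under the main test, edgeR's, 1 partner (*Pacsin2*) could be tested and 0 were called, whereas DESeq2 called it. *Cav1*, which lies 17220 bases downstream of *Cav2* on chromosome 6, overlapped fully between conditions.

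Levels are given as CPM, the counts scaled to library size by the TMM method of edgeR. A gene was tested if all libraries of a condition held 143 counts or more of it, which 10024 genes did, and it was called as changed where the log2 fold change exceeded 0.5 in size with an adjusted p-value under 0.1 (edgeR's quasi-likelihood test, Benjamini-Hochberg adjustment over all genes tested). By this rule 344 genes, or 3.43% of those tested, were called higher in the exposed pools and 186, or 1.86%, lower. Library totals lay between 42780403 and 49527380 counts, so that 3 counts, the level taken as the detection limit, correspond to 0.0613 to 0.0725 CPM. The reads carry no molecular identifiers, and limits of this kind cover counting error only. The labels give 4 mice per condition on each day of work without assigning pools to days, and with 2 exposed pools the spread within that condition rests on a single difference per gene. The markers of mature OSNs were all present, with a summed level of 42246 to 46294 CPM in control and 31939 to 35320 CPM in exposed pools, and 3 of the 8 (*Cnga2*, *Rtp1* and *Cnga4*, all of the transduction or receptor-transport machinery) were called lower. In pools of cells, fewer cells that use a gene and less RNA per cell cannot be told apart.

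*Cav2* and *Cav1* lie in the same orientation on chromosome 6 (GRCm38), *Cav2* (ENSMUSG00000000058) from 17281185 to 17289115 and *Cav1* (ENSMUSG00000007655) from 17306335 to 17341452, both on the plus strand. *Cav3* lies farther along the same chromosome, from 112459505 to 112472872, and the others lie on chromosomes 1 (*Cavin2*), 7 (*Cavin3* and *Ehd2*), 11 (*Cavin1*) and 15 (*Pacsin2*). The start regions of *Cav2* and *Cav1* are shown because these adjacent genes differed in their pattern over the pools. Each window holds the 250 bases before and the 50 bases after the annotated start (RefSeq, GRCm38.p6, plus strand), chr6:17280935-17281234 for *Cav2* and chr6:17306085-17306384 for the first start of *Cav1*. Capitals mark matches on either strand to an AP-1 site (TGANTCA), a cyclic AMP response element (TGACGTCA) or its half-site (TGACG), a GC box (GGGCGG) or a CCAAT box.
Cav2: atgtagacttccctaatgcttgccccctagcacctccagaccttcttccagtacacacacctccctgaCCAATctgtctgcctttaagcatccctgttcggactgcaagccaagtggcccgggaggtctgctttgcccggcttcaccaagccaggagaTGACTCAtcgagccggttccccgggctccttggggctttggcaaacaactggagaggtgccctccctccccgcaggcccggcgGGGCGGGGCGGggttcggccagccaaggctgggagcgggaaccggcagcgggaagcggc
Cav1: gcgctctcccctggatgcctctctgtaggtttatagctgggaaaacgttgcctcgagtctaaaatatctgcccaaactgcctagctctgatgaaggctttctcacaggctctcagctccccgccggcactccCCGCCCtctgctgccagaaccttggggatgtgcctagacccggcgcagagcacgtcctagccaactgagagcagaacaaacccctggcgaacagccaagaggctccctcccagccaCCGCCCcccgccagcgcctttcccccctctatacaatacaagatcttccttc

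The *Cav2* window holds the AP-1 letters TGACTCA, which begin 92 bases before the start. An AP-1 match was present in 7.81% of the 32851 promoter windows of the same length in the table. The window also holds a CCAAT box, present in 37.4% of windows, and a pair of GC boxes that overlap by a base at the start site. GC boxes, found in 35.7% of windows, were the only matches in the *Cav1* window, which has 2. Neither gene had a cyclic AMP response element, found in 1.79% of windows, nor its half-site, found in 20.8%. A second annotated start of *Cav1* (chr6:17307390-17307689) had no match to any of these motifs. Among the other members with an entry, 7 of the 8 in all, the single further AP-1 match stood before the second of 3 annotated starts of *Pacsin2*. These matches describe letters in a window and do not show that a factor binds there.

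In CPM, *Cav2* was at 1.02, 1.76 and 1.03 in C1, C2 and C3 and at 45.0 and 31.1 in E1 and E3. The lowest exposed pool thus stood far above the highest control pool, and all 5 pools were above the detection limit. *Cav2* passed the count minimum through the exposed pools alone. The control mean was 1.27 ± 0.424 CPM (SD, n = 3) and the exposed mean 38.0 ± 9.83 CPM (SD, n = 2), 30.0 times higher, and the fitted log2 fold change was 4.90 (SE 0.44), the 32nd highest of the 10024 genes. Per length, *Cav2* moved from ranks 9750 to 9870 of these genes in the control pools to ranks 3249 and 4264 in the exposed pools, where rank 1 is the highest level in TPM, counts per exon length scaled to the library. It was thus among the least abundant of the tested transcripts at rest and of middle abundance after exposure.

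**Figure D1:**
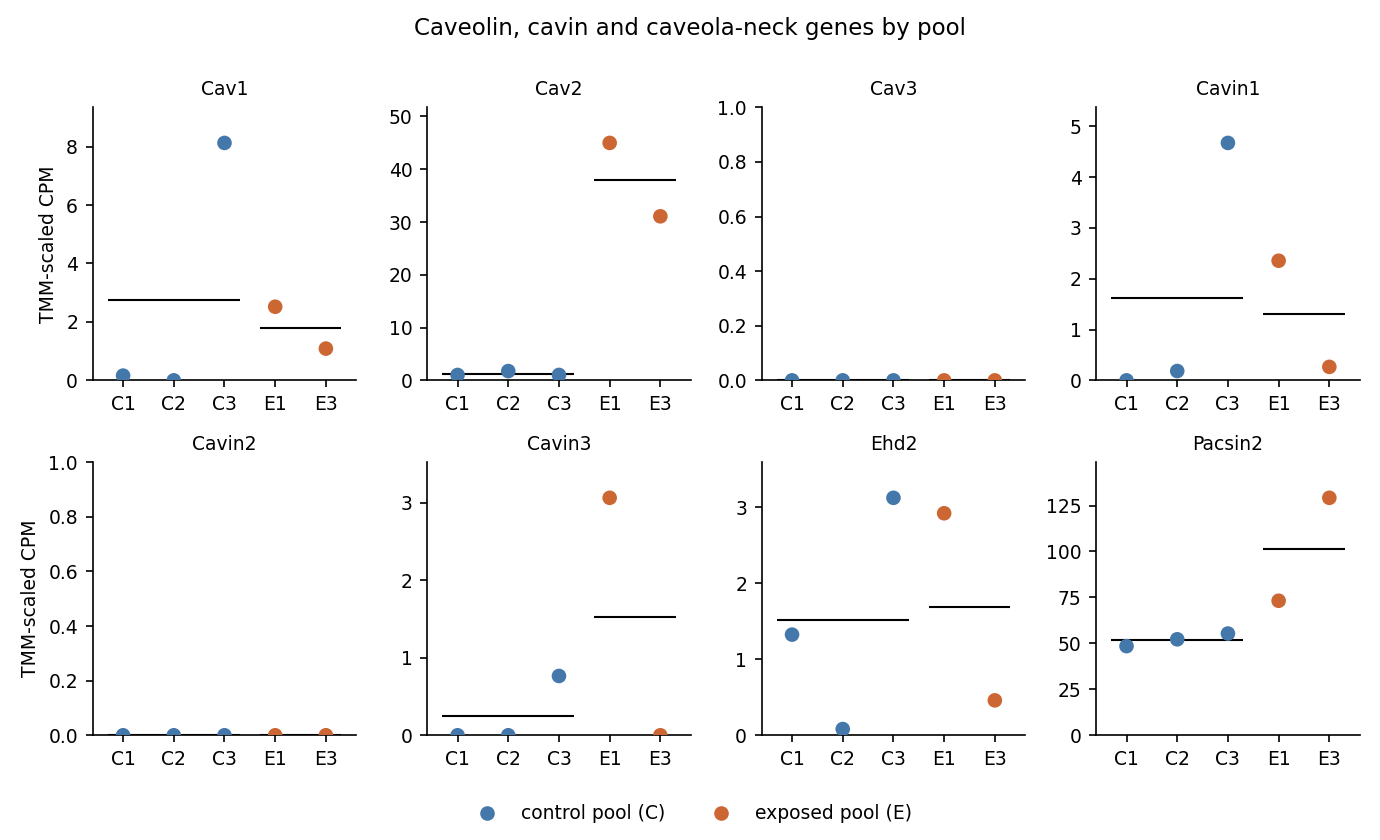
TMM-scaled CPM of the 8 genes in the control pools (C1, C2, C3, blue) and the exposed pools (E1, E3, orange), each panel on its own linear axis from 0, with the mean of each condition as a line. *Cav2* is between 1.02 and 1.76 CPM in control and between 31.1 and 45.0 CPM in exposed pools, *Pacsin2* is highest in E3 at 129 CPM, *Cav3* and *Cavin2* are at 0 throughout, and the highest values of *Cav1* and *Cavin1* are in C3.

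*Cav1* had 7, 0 and 372 counts in C1, C2 and C3 and 107 and 45 counts in E1 and E3. A control pool held its highest level, 8.13 CPM, and another its lowest, so the conditions overlapped over their whole range. *Cav1* did not reach the count minimum. With edgeR's filterByExpr, a looser filter that kept 15526 genes and called 1.55% of them in either direction, its log2 fold change was -0.60 (SE 2.37, adjusted p = 0.965 by edgeR). This standard error is too wide to show whether *Cav1* changed. Without C3 the estimate turned to 4.46 (SE 2.20, adjusted p = 0.486, within a range of 0.486 to 0.993 over its alternatives), so its direction rests on that 1 pool.

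The proportion between both caveolins followed the same pool. Of the summed TPM of *Cav1* and *Cav2*, *Cav2* made up 86.7%, 100% and 11.5% in C1, C2 and C3 and 94.9% and 96.7% in E1 and E3. *Cav2* thus already exceeded *Cav1* in 2 of the 3 control pools, at low counts of both. The difference of the mean shares, 29.7 percentage points, was smaller than the spread of the control pools (SD 47.7 points, n = 3), and it was 2.46 points without C3. *Cav2* was chosen for being higher in the exposed pools, so these shares are a description and test nothing.

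*Cav3*, the caveolin of muscle, had no read in any of the 5 pools. *Cavin2*, a cavin abundant in endothelial cells, had none either, so both were at or below 0.0725 CPM by the detection limit of the shallowest pool. *Cavin1*, which is required to form caveolae, had 0, 9 and 214 counts in C1, C2 and C3 and 100 and 11 counts in E1 and E3. As with *Cav1*, C3 was the highest and the other control pools were the lowest.

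*Cavin3* had 0, 0 and 35 counts in C1, C2 and C3 and 130 and 0 in E1 and E3. Most of its reads came from E1, and the other exposed pool had none. *Ehd2* had 57, 4 and 143 counts in C1, C2 and C3 and 124 and 19 in E1 and E3, and the conditions overlapped fully. With filterByExpr, the log2 fold changes were -0.30 (SE 2.39) for *Cavin1*, 2.58 (SE 2.99) for *Cavin3* and 0.18 (SE 1.61) for *Ehd2*, with adjusted p-values of 0.987, 0.807 and 0.989 in edgeR's test. None of these genes was called, and each estimate changed sign when 1 pool was left out.

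*Pacsin2* was the only partner that passed the count minimum. It had 48.5, 52.2 and 55.4 CPM in C1, C2 and C3 and 73.2 and 129 CPM in E1 and E3. Both exposed pools were above all control pools, as was the case for 20.3% of the genes tested. The log2 fold change was 0.96 (SE 0.27) and was not called (adjusted p = 0.130 by edgeR, unadjusted p = 0.00989), and the exposed pools differed from each other by more than E1 differed from C3. DESeq2 called it, at a log2 fold change of 0.81 and an adjusted p-value of 0.0209, in a range of 0.0209 to 1.00 over 13 alternatives. Without E3 its estimate was 0.47.

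Of the 7 partners, 1 was tested and 0 were called by edgeR, with 1 (*Pacsin2*) at an unadjusted p under 0.05. Under filterByExpr 5 were tested and again 0 were called, whereas DESeq2 called 1, *Pacsin2*.

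Per length, the order of the 8 genes at rest was led by *Pacsin2*, at 36.2 ± 4.04 TPM (SD, n = 3). It was followed at a distance by *Cav1* at 2.75 ± 4.64, *Cavin1* at 1.55 ± 2.53, *Cav2* at 1.31 ± 0.508, *Ehd2* at 0.993 ± 1.03 and *Cavin3* at 0.527 ± 0.913 TPM, with *Cav3* and *Cavin2* at 0. No pool of *Pacsin2* overlapped with the next gene, while each following pair of neighbours overlapped in its control values. In the exposed pools, *Pacsin2* reached 63.1 ± 27.1 TPM (SD, n = 2) and *Cav2* 34.4 ± 7.49 TPM, and the mean of each other member was at or below 2.71 TPM.

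The partners with few reads were highest in the same pools, whichever the condition. The summed level of the 6 partners under the count minimum was 1.49, 0.266 and 16.7 CPM in C1, C2 and C3 and 10.9 and 1.81 CPM in E1 and E3. C3 and E1 together held 88.5% of it, and each of the 4 partners with reads had its highest 2 levels in these pools, a pair of pools named after their values were seen. *Cav2* was also higher in E1 than in E3 (45.0 and 31.1 CPM). It did not share the high level in C3, which had 1.03 CPM of it, close to the 1.02 CPM of C1.

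Markers of cell types that carry caveolae were examined beside these values. Fibroblast markers, 6 of 6 of which had over 3 counts in some pool, summed to 126 CPM in C3 and to 5.82 to 17.5 CPM in the other pools. *Col1a1*, a collagen chain, had 2476 counts in C3 against 23 to 124 elsewhere, and the collagens *Col1a2* and *Col3a1* were also highest there. *Dcn* was not, with 37 counts in C3 and 197, 290, 449 and 26 in C1, C2, E1 and E3, and *Lum* had 49 counts in C3 and 43 in E3. Smooth muscle and pericyte markers summed to 38.3 CPM in C3 and to 6.74 to 14.9 CPM elsewhere. *Des* (desmin) had 568 counts in C3 and 0 in every other pool, whereas *Tagln* was highest in E1 and E3, at 11 and 9 counts. In this list both exposed pools (6.74 and 8.39 CPM) were below all control pools, and *Cspg4* had 294 to 333 counts in control and 53 to 61 in exposed pools. *Cspg4* was called lower (log2 fold change -2.32, adjusted p = 0.0798 by edgeR), but not with filterByExpr (adjusted p = 0.187 by edgeR). It passed the count minimum through the control pools alone, where it was high, so its call is no independent sign of a difference. Skeletal muscle markers summed to 29.8 CPM in C3 and to 1.45 to 2.36 CPM elsewhere, nearly all of it *Acta1*, with 2 of the 5 above 3 counts in some pool. *Ckm* had 0 counts in C3 and 25 in E1. C3 thus had the highest level of *Cav1*, *Cavin1* and *Ehd2* and the highest sum of all 3 of these marker lists, though not of every marker in them. E1 had the second highest fibroblast sum and the lowest smooth muscle sum.

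Endothelial markers summed to 4.29 to 14.7 CPM in control and to 9.76 to 14.0 CPM in exposed pools, and 5 of the 9 (*Cdh5*, *Tek*, *Kdr*, *Flt1* and *Emcn*) were at 0 in all 5 pools. *Pecam1* (145 to 332 counts) and *Vwf* (65 to 323 counts) had reads in every pool, and *Cldn5* had 53 counts in E1 and 5 in C3. Adipocyte markers summed to at most 0.495 CPM, with 3 of 4 above 3 counts in some pool. Macrophage and leukocyte markers, 8 of 8 above 3 counts in some pool, summed to 140, 18.4 and 13.2 CPM in C1, C2 and C3 and to 128 and 46.6 CPM in E1 and E3, and sustentacular markers, 6 of 6 present, to 69.8 to 243 CPM in control and 99.3 to 252 CPM in exposed pools. In both sums the conditions overlapped. Single leukocyte markers differed in this. *Ptprc* (CD45) had 0, 54 and 1 counts in C1, C2 and C3 and 542 and 517 in E1 and E3. *Tyrobp*, a signalling adaptor of myeloid cells, had 1.46 to 12.5 CPM in control and 19.3 to 24.2 CPM in exposed pools. Both passed the count minimum through the exposed pools alone, and neither was called (adjusted p = 0.191 and 0.297 by edgeR). The others (*Csf1r*, *Adgre1*, *Cd68*, *C1qa*, *C1qb* and *Lyz2*) overlapped, and *Adgre1* had 587 counts in C1 and 0 in every other pool. Markers of immature OSNs, 5 of 5 present, summed to 592 to 718 CPM in control and 801 to 1076 CPM in exposed pools, without overlap. *Stmn2* made up most of these sums and itself overlapped (429 to 545 CPM in control, 618 and 482 CPM in E1 and E3). *Gap43*, *Gng8*, *Stmn1* and *Dpysl3* did not overlap, and 20.3% of all genes tested had both exposed pools above all control pools. *Gap43*, a growth-cone protein, was called higher (log2 fold change 0.94, adjusted p = 0.0884 by edgeR, and not called with filterByExpr, adjusted p = 0.163). *Gng8*, *Stmn1* and *Dpysl3* were not called (adjusted p = 0.240, 0.121 and 0.104 by edgeR). Horizontal basal markers summed to 1.43 to 6.57 CPM in control and 8.92 to 10.3 CPM in exposed pools and globose basal markers to 0.441 to 2.56 CPM and 3.09 to 5.92 CPM, both low but without overlap. Single genes made up most of these exposed sums. In E1 the horizontal basal sum was all *Icam1* (10.3 CPM), with *Krt5*, *Krt14* and *Trp63* at 0 counts. Of the globose basal markers, *Neurod1* had 232 counts in E3 and 0 in every other pool, and *Kit* had 108 counts in E1 and 0 in E3. Ensheathing glia markers summed to 0.197 to 3.93 CPM over the 5 pools and overlapped. The part of these cells in the levels of *Cav2* and its partners was not tested.

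**Figure D2:**
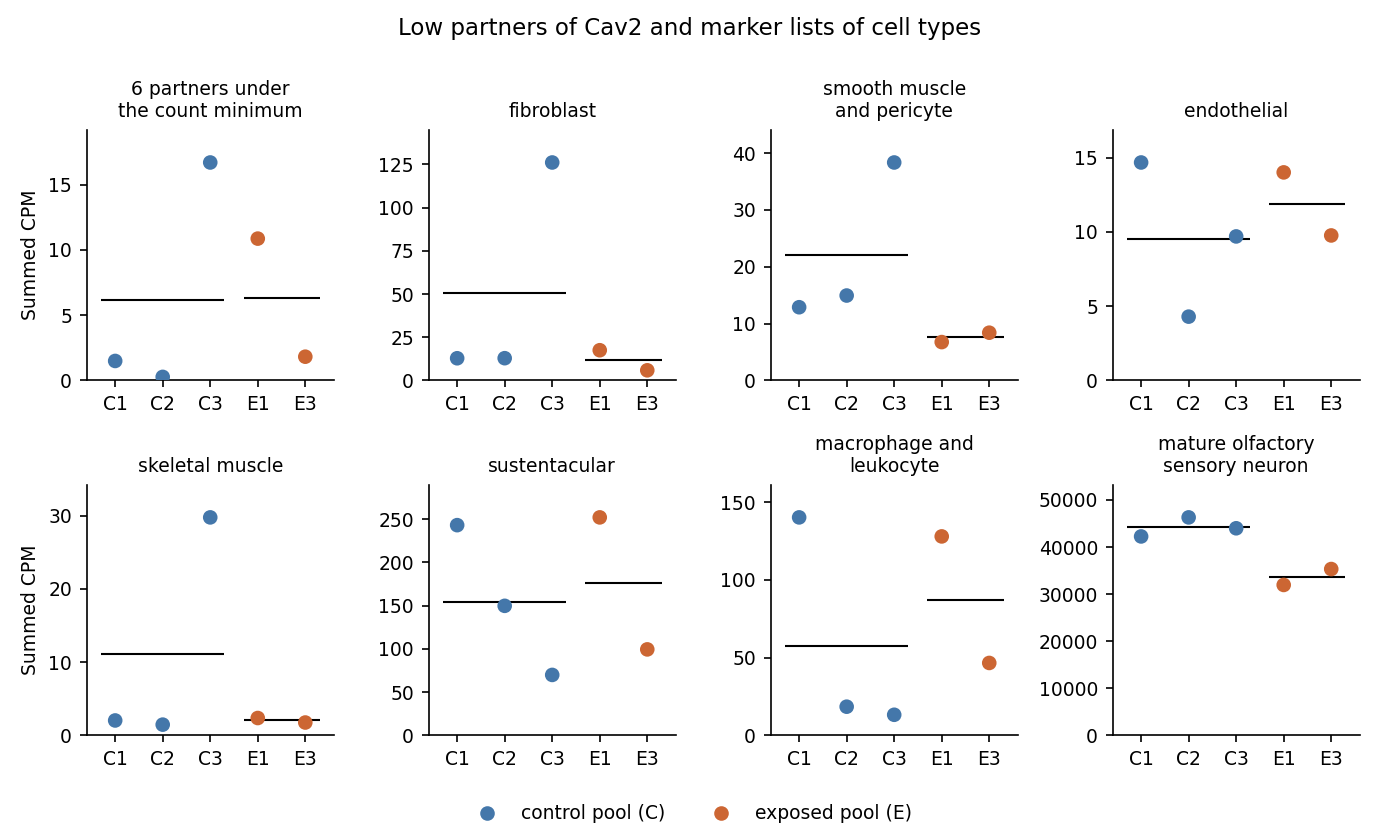
Summed CPM of the 6 partners under the count minimum and of marker lists of 7 cell types in the control (C, blue) and exposed (E, orange) pools, each panel on its own linear axis from 0, with the mean of each condition as a line. C3 has the highest sum of the low partners (16.7 CPM) and of the fibroblast, smooth muscle and skeletal muscle lists, and mature OSN markers are between 31939 and 46294 CPM in all pools.

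The paralogs of EHD2 were expressed at far higher levels per length than *Ehd2* itself (0.993 ± 1.03 TPM in control pools, SD, n = 3), with *Ehd1* at 63.7 ± 13.6, *Ehd3* at 99.8 ± 18.1 and *Ehd4* at 42.1 ± 5.11 TPM. *Ehd1*, an ATPase of endocytic recycling, had 56.6, 77.7 and 72.1 CPM in C1, C2 and C3 and 200.2 and 234 CPM in E1 and E3. Both exposed pools were over 2 times the highest control pool. *Ehd1* was called higher, with a log2 fold change of 1.66 (SE 0.20, adjusted p = 0.00945 by edgeR), and its estimate lay between 1.41 and 1.76 over 13 alternatives (adjusted p from 3.50e-11 to 0.805). The call was lost under 2 of these, one of them spike-in scaling (1.41, adjusted p = 0.805 by edgeR).

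*Ehd3* (139.6 to 219 CPM over the 5 pools), *Ehd4* (38.2 to 60.0 CPM), the neuronal paralog *Pacsin1* (37.1 to 72.1 CPM) and *Pacsin3* (58.4 to 92.3 CPM) were expressed in every pool, and each overlapped between conditions. Their log2 fold changes of -0.26, -0.15, 0.20 and -0.10 were not called, with adjusted p-values of 0.513, 0.814, 0.769 and 0.866 by edgeR. *Cavin4*, the muscle cavin, had 0, 17 and 0 counts in C1, C2 and C3 and 88 and 0 in E1 and E3, and was not tested. Of the 6 paralogs, 5 were thus tested, 1 was called higher and 0 lower, beside 3.43% and 1.86% of all genes tested. Their median log2 fold change was -0.10, against -0.03 over all genes tested.

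**Figure D3:**
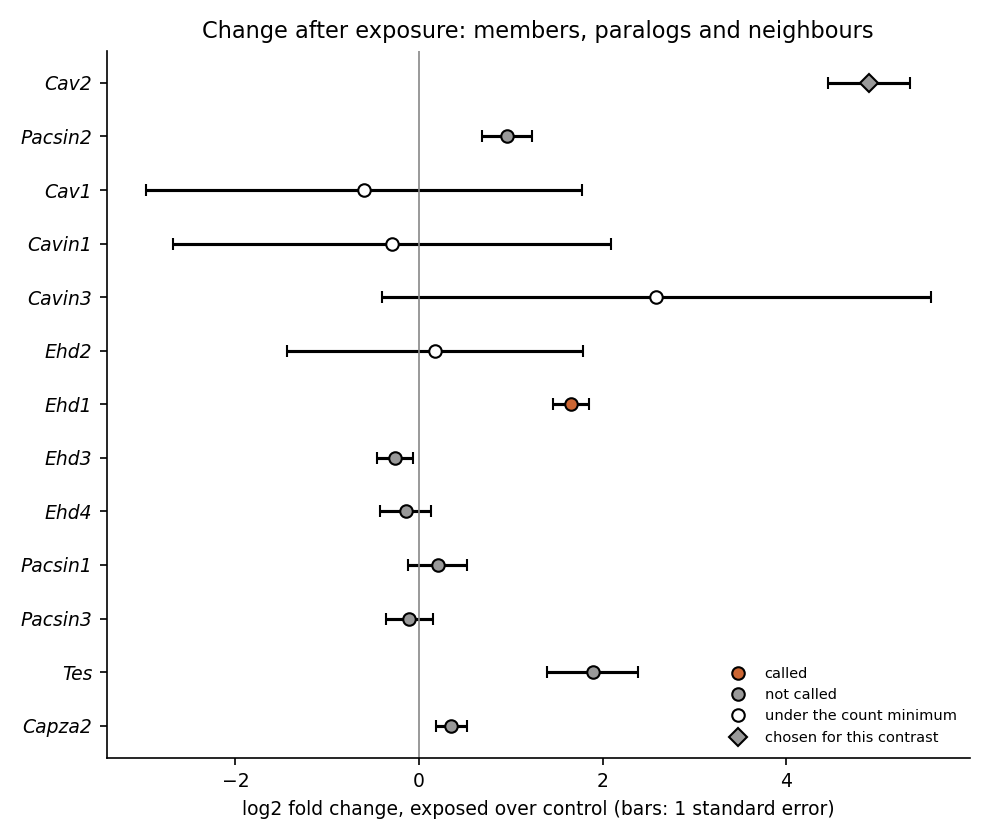
Fitted log2 fold change, exposed over control, with 1 standard error on each side, for members, paralogs and neighbours of *Cav2*. Open circles are genes under the count minimum, from the fit with filterByExpr. *Cav2* (diamond, 4.90) was chosen for this contrast and is shown without a test, *Ehd1* (orange) is the one other gene shown that was called, and the bars of *Cav1*, *Cavin1*, *Cavin3* and *Ehd2* all reach across 0.

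The region around *Cav2* was examined gene by gene. Within 1 Mb of *Cav2* on chromosome 6 lie 37 other annotated genes, of which 25 had no read in any pool and 11 had over 3 counts in some pool. Only *Tes* and *Capza2* passed the count minimum, and 0 of the 2 were called by edgeR (1, *Tes*, by DESeq2). On chromosome 6 as a whole, 15 of the 474 genes tested were called higher, beside 344 of all 10024 genes tested (3.43%). *Tes*, which encodes the focal-adhesion protein testin and ends 175357 bases before *Cav2*, had 221, 155 and 109 counts in C1, C2 and C3 and 593 and 518 counts in E1 and E3.

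Both exposed pools of *Tes* were above all control pools, as was the case for 20.3% of the genes tested. It passed the count minimum through the exposed pools alone, where it was high, so its tests are no independent sign of a difference. The log2 fold change was 1.89 (SE 0.50), which edgeR did not call (adjusted p = 0.111). DESeq2 called it at 1.52 (adjusted p = 0.0140), and it was also called without C1, at 2.26 (adjusted p = 0.0820 by edgeR), in a range of 0.0140 to 0.698 over 13 alternatives. *Capza2*, the alpha 2 subunit of the actin capping protein, lies 347119 bases beyond *Cav2* and had 5063 to 5693 counts in control and 5708 to 6995 counts in exposed pools, a log2 fold change of 0.35 (SE 0.17) that was not called (adjusted p = 0.316 by edgeR).

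In the remaining neighbours with reads, the conditions overlapped. *Met*, a receptor tyrosine kinase, had 1, 93 and 19 counts in C1, C2 and C3 and 0 and 64 in E1 and E3. *Cftr*, a chloride channel, had 254 counts in C2 and none elsewhere, and *Tfec*, a transcription factor, had 98 counts in E1 and none elsewhere. The antisense gene *Gm15581* spans *Cav2* and *Cav1* on the minus strand but shares no exon with either and had 0 counts, so that the unstranded counting did not mix its reads with theirs. Among the members, their paralogs and the tested neighbours, exons overlapped those of another gene only between *Cavin3* and *Gm45667* and between *Tes* and *Gm4876*. Neither *Gm45667* nor *Gm4876* had a count. Exon overlap was not examined for the other genes named here.

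**Figure D4:**
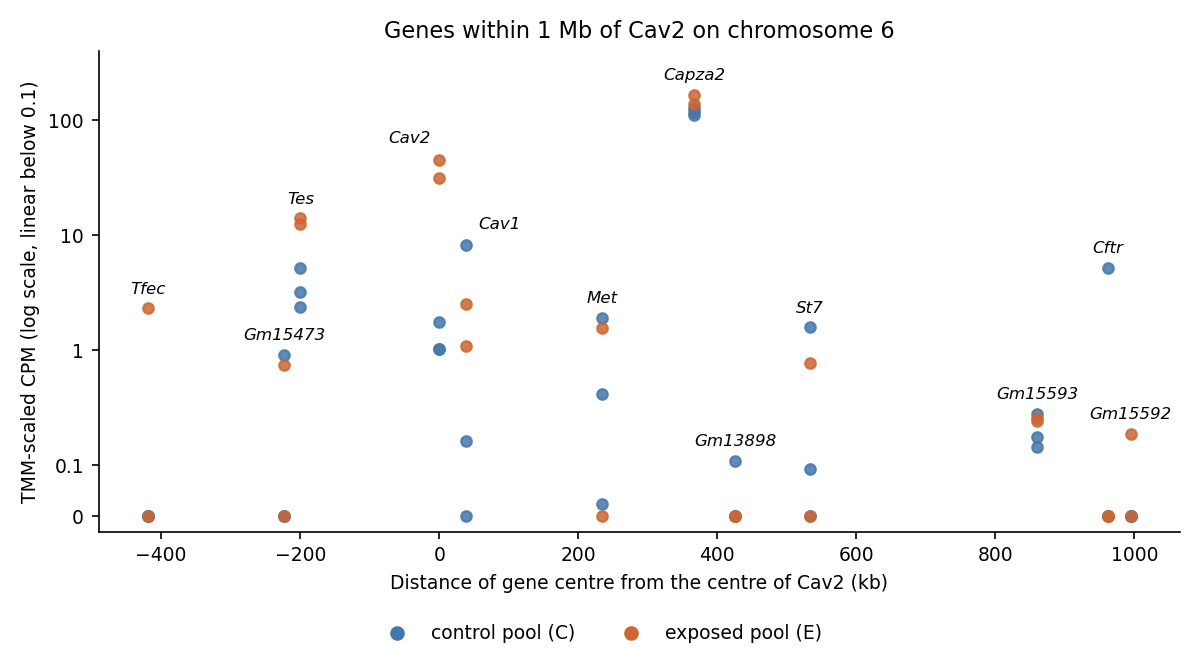
TMM-scaled CPM (log axis, linear below 0.1) of *Cav2* and of the genes within 1 Mb of it with over 3 counts in some pool, against the distance of their centre from the centre of *Cav2* in kb, with control pools in blue and exposed pools in orange. The conditions stand apart at *Cav2* (1.02 to 1.76 against 31.1 to 45.0 CPM) and at *Tes* and *Capza2*, whereas at *Cav1* a control pool is the highest. Of all genes tested, 20.3% had both exposed pools above all control pools, and neither *Tes* nor *Capza2* was called by edgeR.

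The genes whose pattern over the 5 pools was closest to that of *Cav2* were sought among all 10023 others tested, by the root mean square difference of log2(CPM + 1) centred on each gene's mean. The median gene differed from *Cav2* by 2.05. The closest was *Pcdh10*, a protocadherin of cell adhesion, with a difference of 0.159 and counts of 2642, 4293 and 3072 in C1, C2 and C3 and 64738 and 56090 in E1 and E3. *Arid5a*, an RNA-binding protein, followed at 0.206, with 209 to 356 counts in control and 3708 to 3920 in exposed pools.

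*Tnfrsf23*, a decoy receptor of the TNF receptor family, was next at 0.290, with 0 counts in every control pool and 532 and 440 in E1 and E3. *Hcar2*, a hydroxycarboxylic acid receptor also used by macrophages, had 0 counts in the control pools and 1201 and 426 in the exposed pools, and *Vgf*, a neuropeptide precursor, had 0, 13 and 0 counts against 1442 and 476. Both differed from *Cav2* by 0.319. *Tes* took rank 191 by this measure, with a difference of 1.24, and *Pacsin2* differed by 1.63. *Tnfrsf23*, *Hcar2* and *Vgf* passed the count minimum through the exposed pools alone, where they were high, as *Cav2* did. Their fitted log2 fold changes were 12.0, 12.7 and 7.92, against 4.90 for *Cav2*. The 1 added to each CPM narrows such differences at levels near 0. The likeness uses the values by which *Cav2* was chosen and tests nothing. It is over 5 libraries of 2 conditions and describes these libraries only.

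Genes of related membrane systems were counted from lists of names. Over all 10024 genes tested, 3.43% were called higher and 1.86% lower. Among 21 receptors and kinases that have been linked to caveolins, 16 were tested, 1 was called higher and 1 lower (median log2 fold change 0.12). *Bmpr2*, the type II receptor of bone morphogenetic proteins, had 2300 to 2945 counts in control and 4601 to 4755 in exposed pools, and rose by a log2 fold change of 1.01 (SE 0.20, adjusted p = 0.0555 by edgeR). *Lrp6*, a co-receptor of Wnt, had 1748, 1960 and 584 counts in C1, C2 and C3 and 54 and 192 in E1 and E3. Its log2 fold change was -3.40 (SE 0.81, adjusted p = 0.0944 by edgeR), but it passed the count minimum through the control pools alone, where it was high, and its call was lost in 8 of 13 alternatives, with filterByExpr among them (adjusted p = 0.189).

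Of the 10 genes listed as flotillin and stomatin scaffolds, with *Phb*, *Phb2*, *Erlin1* and *Erlin2* among them, all 10 were tested, 1 was called higher and 0 lower (median -0.04). This was *Stom* (stomatin), with 508869 to 614697 counts in control and 733838 to 858412 in exposed pools (log2 fold change 0.60, SE 0.10, adjusted p = 0.0358 by edgeR). Of the 23 genes of the clathrin coat, its adaptor AP-2 and the dynamins, the main alternative route of endocytosis, 22 were tested, 2 were called higher and 0 lower (median 0.15). They were the clathrin heavy chain *Cltc* (18502 to 28128 against 32353 to 38782 counts, log2 fold change 0.84) and the adaptor subunit *Ap2a2* (8345 to 9757 against 13806 to 14305 counts, log2 fold change 0.75), with adjusted p-values of 0.0702 and 0.0355 by edgeR.

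Of the 29 genes of cholesterol synthesis, uptake and export, 27 were tested, 1 was called higher and 1 lower (median 0.06). *Abcg1*, an exporter of cholesterol, had 7268 to 9892 counts in control and 17639 to 17806 in exposed pools (log2 fold change 1.20, SE 0.16, adjusted p = 0.0153 by edgeR). *Mvk*, mevalonate kinase of cholesterol synthesis, had 3319 to 4062 counts in control and 738 to 1093 in exposed pools and fell by 1.92 on the log2 scale (SE 0.27, adjusted p = 0.0175 by edgeR). Of the genes tested in these lists, *Lrp6*, *Pdgfrb* and *Scarb1* passed the count minimum through the control pools alone and *Yes1*, *Idi1* and *Insig1* through the exposed pools alone. The medians of the lists lay between -0.10 and 0.15, and that of all genes tested at -0.03. With 1 pool left out, *Ehd1* kept its call in each of the 5 cases. *Mvk* lost it without E3 (adjusted p = 0.106) and *Abcg1* without E1 or E3 (0.139 and 0.108). *Bmpr2*, *Stom* and *Ap2a2* lost it without C2, E1 or E3 (0.110 to 0.325), *Cltc* without C1, C3, E1 or E3 (0.104 to 0.272) and *Lrp6* without C1, C2, E1 or E3 (0.132 to 0.357), all by edgeR and with the direction kept. With spike-in scaling *Lrp6* alone remained called.

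**Figure D5:**
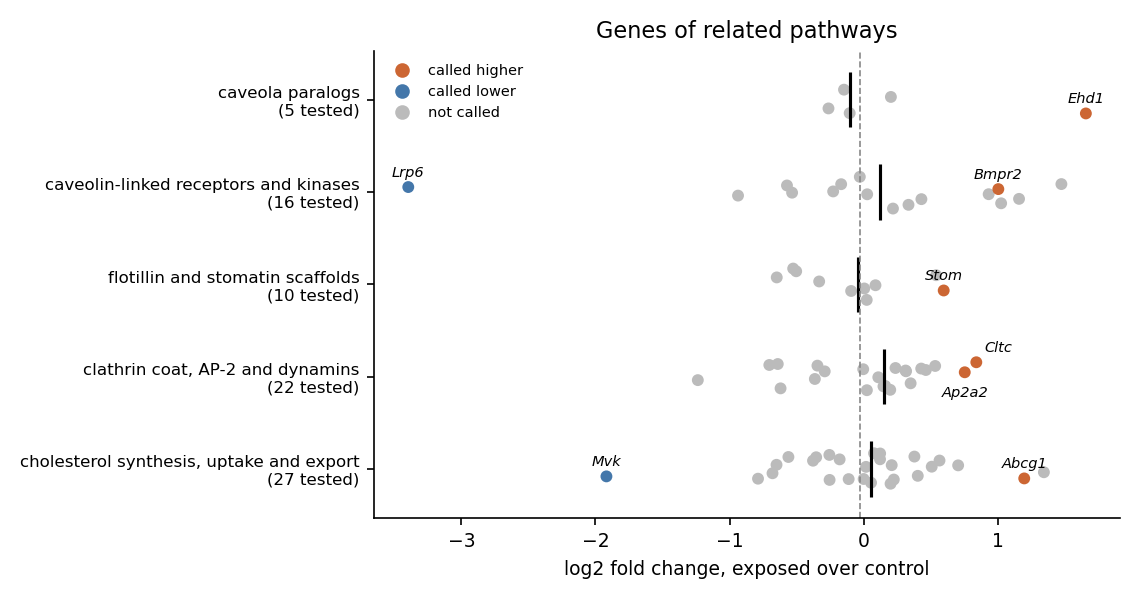
Log2 fold change, exposed over control, of the tested genes of 5 lists, with 1 point per gene, called genes in orange (higher) or blue (lower), the list median as a black line and the median of all genes tested (-0.03) as a dashed line. Of each list, 1 or 2 genes were called, and *Lrp6* and *Mvk* are the genes called lower.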

How the data were processed

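The authors mapped single reads of the SMARTer and Nextera XT libraries with STAR 2.7.0a to GRCm38 and summed them per gene over its exons with featureCounts 1.6.3, without strand and without reads mapping to several places. The deposited values are these raw counts, 1 table per pool, with exon lengths. The ERCC spike-ins took 0.249% to 0.631% of the counts. Each pool held 200 sorted cells.

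Pools were grouped by the treatment in their labels. The members and lists were chosen with earlier results of these data known. All 8 members, their paralogs, tested genes within 1 Mb, called list genes, defining markers and the 5 genes most like *Cav2* are named. Symbols were found for 55144 of 55411 genes in GENCODE M21. Counts were tested as deposited with edgeR 4.0.16 (quasi-likelihood, robust, TMM) in R 4.3.3. The minimum of 143 counts is the deepest trough between the modes of the distribution of log2(count + 1). TPM was computed from counts and exon lengths. Alternatives were DESeq2 1.42.0 with apeglm 1.24.0, its size factors, spike-in scaling, no filter, filterByExpr, an adjusted p of 0.05, no robust estimation, a pool-number block and each pool left out. Leaving out pools under filterByExpr was added after seeing the data. In simulated counts of this comparison, 28% of genes changed 2-fold, 66% changed 4-fold, 82% changed 8-fold and 88% changed 16-fold were called among 10024 genes, of which 200 were changed, with 25 false calls.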

Additional observations from a re-analysis of the deposited data

How the results depend on the processing

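The log2 fold change of *Cav2* was 4.52 to 5.22 over the 13 alternatives. *Cav2* was chosen for being higher in both exposed pools, so this range describes the size of its difference and tests nothing. Genes called higher and lower (344 and 186 by edgeR) numbered 673 and 715 with DESeq2, 92 and 48 with spike-in scaling, 163 and 77 with filterByExpr, 190 and 91 at an adjusted p under 0.05, and 93 to 354 and 19 to 439 with 1 pool left out. Without exposed pool 1, the lowest of these, 93 and 19 were called. Spike-in scaling moved the median gene tested to a log2 fold change of -0.23, from -0.03 under TMM. Partners called numbered 1 with DESeq2 and 0 with any pool left out. Called list genes (8) numbered 1 with spike-in scaling, 5 with filterByExpr, 5 at an adjusted p under 0.05 and 2 to 8 with 1 pool left out, the lowest without exposed pool 1 or exposed pool 3. Within 1 Mb of *Cav2* the count was 1 with DESeq2 and 0 to 1 with 1 pool left out. The difference in the *Cav2* share of both caveolins was 2.46 to 46.7 points with 1 pool left out. With the pool number as a replicate block, 11 genes were called higher and 0 lower, 0 of the list genes (*Ehd1* at 1.76, adjusted p = 0.126 by edgeR) and 0 of the partners, and *Pacsin1* turned to -0.016. Labels share numbers 1 and 3 only, and same-numbered pools deviated with correlations of 0.056 and -0.079 over 10024 genes, so the numbers were not taken as pairs. Signs also turned for *Cav1* (4.46 without control pool 3), *Cavin1* (3.78 without control pool 3, 0.56 without exposed pool 3), *Cavin3* (-6.52 without exposed pool 1), *Ehd2* (-0.38 without control pool 2, -1.68 without exposed pool 1), *Cavin4* (-5.43 without exposed pool 1), *Ehd4* (0.016 without control pool 1, 0.047 without exposed pool 1), *Pacsin1* (-0.19 without exposed pool 3) and *Pacsin3* (0.091 without control pool 3, 0.051 without exposed pool 1), none of them called. The causes were not tested. With 1 pool left out, *Ehd4*, *Pacsin1* and *Pacsin3* spanned -0.41 to 0.047, -0.19 to 0.49 and -0.32 to 0.091. Where a pool left out leaves 1 exposed pool, that pool is assumed to vary like the controls.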
